A study of Mus musculus with 4 samples.

Results

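The nuclear-encoded subunits of the mitochondrial respiratory chain and ATP synthase were examined in mouse regulatory T cells. Members were taken by gene name alone: protein-coding genes whose GENCODE name starts with Ndufa, Ndufb, Ndufc, Ndufs or Ndufv and a digit, with Uqcr, with Cox4 to Cox8 or with Atp5, and the 4 Sdh subunit genes. This gave 84 genes of the 50600 counted and of 21764 protein-coding genes. By name prefix 37 belong to complex I, 4 to complex II, 8 to complex III, 18 to complex IV and 17 to complex V. The rule reads names and no measured value.

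RNA was sequenced in 4 libraries of primary regulatory T cells, CD4+ T cells that restrain immune responses, from C57BL/6NJ mice. The labels place the 4 libraries in 1 group, number them as biological replicates 1 to 4, and give them the same donor identifier, with sex, age and stage not recorded. A linked protocol is on differentiation of CD4+ T cells, and the words activated and 24h stand in output names in the file headers. No genetic change or control arm is named, so every comparison is between genes within a library or between the libraries themselves.

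The respiratory chain passes electrons from NADH (complex I) and succinate (complex II) through complex III to oxygen at complex IV. Complexes I, III and IV pump protons across the inner membrane, and complex V, the ATP synthase, uses that gradient to make ATP. Complex II is built from nuclear genes alone, whereas the other complexes join nuclear subunits to a few made from the mitochondrial genome. In regulatory T cells, mitochondrial respiration is known as a main source of ATP and as a requirement for suppressive function.

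The libraries held 38590127 to 93035969 assigned fragments. Levels are given as TPM, fragments divided by the length of the gene's exons and scaled so that all genes of a library sum to the same total. Values after ± are SDs over n = 4 libraries. The labels call these biological replicates but give them the same donor identifier, and do not say whether they are separate animals or cultures. P-values therefore measure only the spread between these libraries, which may be technical in part. The markers went with the label apart from a low Ikzf2. All 6 T cell and all 5 regulatory T cell genes were above 1 TPM, with Foxp3 at 109 ± 14.5 TPM and Cd4 at 540 ± 31.7 TPM. Ikzf2 was the lowest of the regulatory T cell genes at 4.32 ± 0.788 TPM, under the Cd8b1 level given next. Among markers of other cells, Cd8b1 was highest at 21.8 ± 4.19 TPM, 2 of 4 B cell and 1 of 4 macrophage genes had means between 1 and 2 TPM, and 0 of 4 NK and 0 of 3 dendritic genes reached 1 TPM. The 3 neutrophil and 2 testis markers had 0 fragments in all libraries. Summed levels of the striated muscle and erythroid markers were under 1 TPM. These libraries differed in other ways. The rRNA-related feature Gm42418 had 35490.5 TPM in replicate 1 and 1324 to 3197 TPM in the others, and the protein-coding share of TPM was 88.2% there against 95.6% to 96.6%. Xist was at 100.4 TPM in replicate 1 and 88.7 in replicate 2 but at 0.716 in replicate 3 and 0.603 in replicate 4, and the Y-linked gene Ddx3y had 0.159, 0.101, 46.1 and 40.6 TPM in that order. Replicates 1 and 2 are therefore not technical repeats of the RNA in replicates 3 and 4, and whether the libraries within each pair are separate animals is not given.

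All 76 members other than tissue-restricted isoforms were expressed, with a mean of at least 1 TPM. Of the 84 genes 78 had a mean of at least 1 TPM, 74 of at least 10, 61 of at least 100 and 38 of at least 200. Of these genes 43 lay at or above 186 TPM, the level that the top 10% of 10383 expressed protein-coding genes reached. The median over the 84 members was 172, 195, 192 and 188 TPM in replicates 1 to 4, or 187 ± 10.4 TPM. The median over all expressed protein-coding genes (mean of at least 1 TPM, members included) was 30.9 ± 1.24 TPM. Members together held 1.897%, 2.16%, 2.05% and 2.09% of TPM in replicates 1 to 4, a mean of 2.05 ± 0.110%. Replicate 1 was lowest on this scale, and without it the mean was 2.096%. Over the TPM of protein-coding genes alone the shares were 2.15%, 2.26%, 2.12% and 2.16%, with replicate 3 lowest. As a share of fragments the values were 1.0899% (95% exact binomial interval 1.087 to 1.093), 1.174% (1.171 to 1.177), 1.098% (1.095 to 1.101) and 1.138% (1.136 to 1.140), intervals that cover counting error only. In these bulk libraries, fewer cells of a type and less RNA per cell cannot be told apart.

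**Figure D1:**
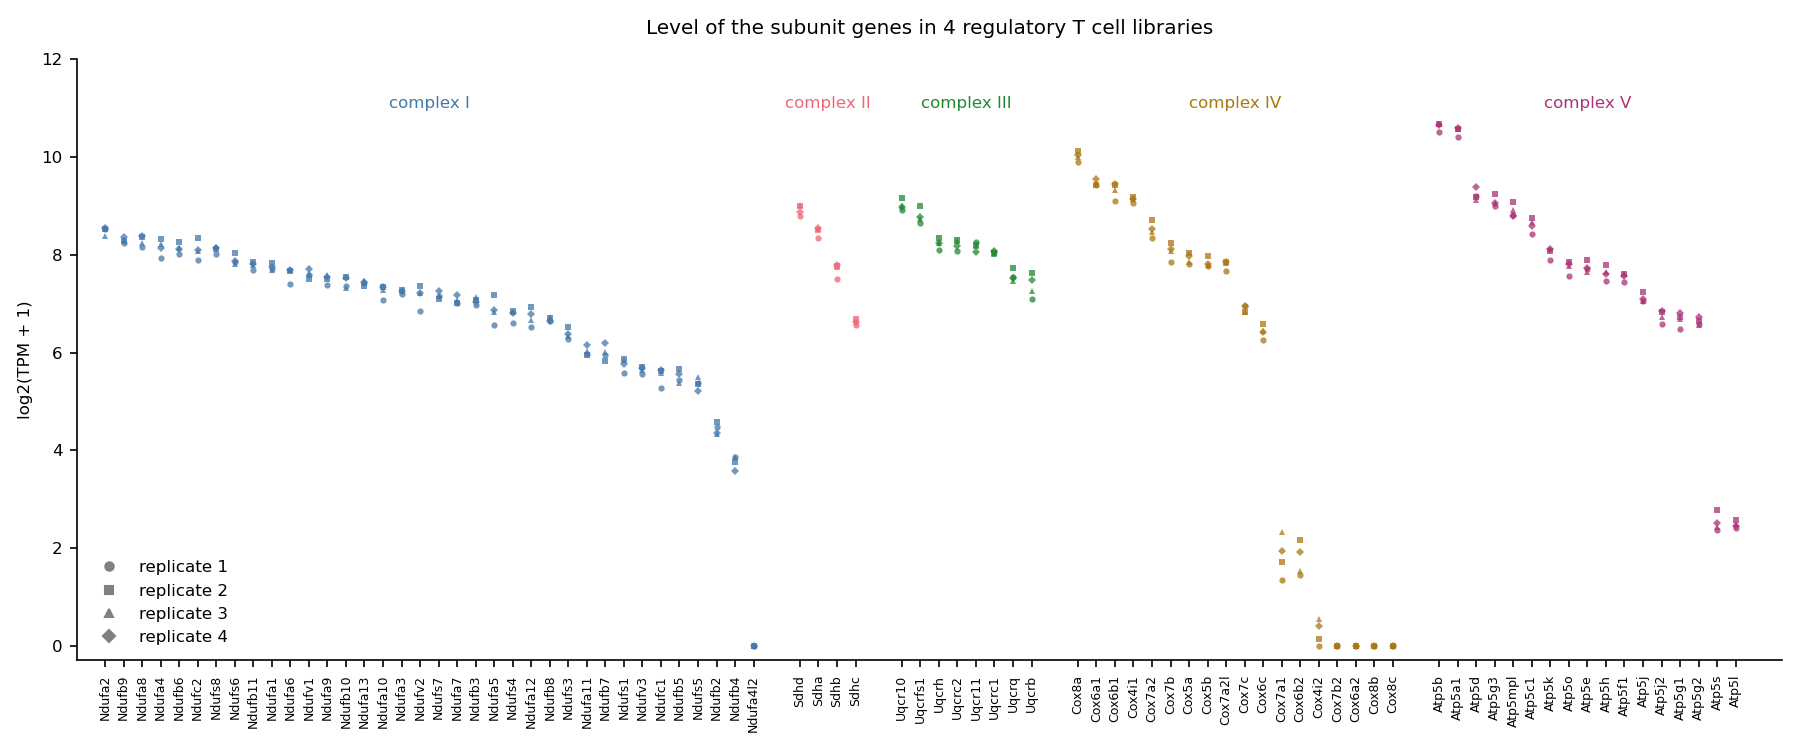
Level of the subunit genes as log2(TPM + 1), ordered by mean within each complex, with 1 symbol per library. Most genes lie within a narrow band in all 4 libraries, complexes I and IV end in genes at 0, and complex V runs from Atp5b at 1586 TPM to Atp5l at 4.60 TPM.

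Complex I, which oxidises NADH, had the lowest median of the complexes, at 135, 155, 147 and 153 TPM in replicates 1 to 4 (147 ± 9.06 TPM). Its 36 detected members ran from 12.6 to 362 TPM, 26 of them at 100 TPM or more. The 7 core subunits include those that carry the flavin and iron-sulfur clusters, and none of them had the highest level of the complex by either length given here. Ndufs8, which holds iron-sulfur clusters, had 276 ± 12.1 TPM. Ndufv1, the NADH-binding subunit, had 195 ± 11.4 TPM, Ndufv2 143 ± 21.2 and Ndufs7 143 ± 7.36. Ndufs3 had 82.3 ± 6.20 TPM and Ndufs1, the largest core subunit, 53.5 ± 4.67 TPM. The core genes given here thus differed among themselves by far more than any of them did between libraries. The median of the 7 was 151 ± 9.82 TPM, against 144 ± 8.37 TPM for the 28 supernumerary subunits, a gap smaller than either SD. Within each library the core median was still the higher. It was 141, 164, 147 and 153 TPM in replicates 1 to 4, against 131, 149, 146 and 148 TPM. By the length of 1 reference transcript in place of the union of all exons, the core median was 186 ± 5.94 TPM and the supernumerary median 161 ± 7.61 TPM, a gap larger than either SD.

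By exon union length, the scale used unless another is named, the highest members of complex I were supernumerary subunits, which surround the core and are needed for its assembly or stability. Ndufa2 had 371, 366, 335 and 375 TPM in replicates 1 to 4. Ndufb9 (chromosome 15, 58933810 to 58939489, plus strand) had 303, 311, 316 and 329 TPM. Ndufa8 (chromosome 2, 36036326 to 36049406, minus strand) had 286, 327, 304 and 332 TPM. Ndufa2 was the highest of the 3 in each library, and Ndufb9 and Ndufa8 did not differ beyond their spread. By transcript length this rank was lost. Ndufa4, counted here by its name but now placed with complex IV, was highest at 446 ± 45.6 TPM. Ndufb8 was next with 325 ± 8.36, and Ndufa2 had 249.8 ± 14.0 TPM. The X-linked accessory genes Ndufb11 (chromosome X, 20615326 to 20617619) and Ndufa1 (chromosome X, 37187588 to 37191163) were close in level. Ndufb11 had 206, 231, 220 and 223 TPM and Ndufa1 207, 227, 207 and 214 TPM in replicates 1 to 4. Neither separated the libraries high in Xist from the other two.

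At the low end stood Ndufb4 and Ndufa4l2. Ndufb4, a membrane-arm subunit (chromosome 16, 37647170 to 37654453, minus strand), had 13.4, 12.5, 13.5 and 10.9 TPM. It is one of the members whose transcript is repeated elsewhere: 37.0% of its 50-base stretches also occur in another annotated gene, all in the processed pseudogene Ndufb4c on chromosome 15. Fragments that map to several places were not requested in the deposited counting, and the pseudogene itself had 20 fragments in all 4 libraries against 958 for Ndufb4. The first 120 coding bases, shown because a script found 0 differences between the copies and no read within them can be assigned by sequence, are as follows (5′ to 3′, minus strand of chromosome 16, with no letters in capitals because none differ).
Ndufb4: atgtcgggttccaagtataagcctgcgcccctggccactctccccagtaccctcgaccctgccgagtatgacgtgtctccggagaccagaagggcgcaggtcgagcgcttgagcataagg

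Complex II, succinate dehydrogenase, is shared with the TCA cycle. Sdhd and Sdhc anchor it in the membrane, Sdha binds succinate and flavin, and Sdhb holds the iron-sulfur clusters. Sdhd (chromosome 9, 50596357 to 50603812, minus strand) had 441, 508, 516 and 471 TPM. Sdha had 322, 361, 369.9 and 371 TPM, and Sdhb 182, 218, 214 and 221 TPM. Sdhc (chromosome 1, 171127165 to 171150603, minus strand) had 93.2, 102, 97.8 and 97.9 TPM. The order Sdhd, Sdha, Sdhb, Sdhc held in each library without overlap. On TPM replicate 1 was the lowest library for each of these genes, while after TMM scaling, edgeR's correction for a few features that take up much of a library, it was lowest for 2 of 4, Sdha and Sdhb. The means were 484 ± 34.6, 356 ± 23.0, 209 ± 18.1 and 97.8 ± 3.69 TPM. By transcript length the means were 334 ± 20.6 TPM for Sdhd and 329 ± 17.2 for Sdha, so the order of that pair rests on the exon union length. Sdhc stayed lowest at 69.2 ± 1.94 TPM.

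Complex III moves electrons from ubiquinol to cytochrome c, and its 8 members ranged from 166 to 519 TPM. Uqcr10, a small subunit (chromosome 11, 4701973 to 4704342), had 484, 576, 509.6 and 507 TPM. Uqcrfs1, the Rieske iron-sulfur protein (chromosome 13, 30540308 to 30545362), had 399, 509, 425 and 436 TPM. Uqcrh, the hinge protein, had 272, 324, 302 and 303 TPM. Replicate 2 was highest for each of the 3. The core proteins Uqcrc2 and Uqcrc1 had 296 ± 22.4 and 263 ± 5.01 TPM. On TPM over protein-coding genes alone the SD of Uqcrc1 was larger, at 279.5 ± 13.9 TPM. The lowest were Uqcrq, a small subunit, with 187, 210.1, 174 and 184 TPM, and Uqcrb with 137, 196, 153 and 179 TPM. The median of the complex was 270, 305, 296 and 279 TPM in replicates 1 to 4, or 287 ± 15.8 TPM.

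Complex IV, cytochrome c oxidase, divided into 10 broadly expressed subunits, the supercomplex factor Cox7a2l and 7 tissue-restricted isoforms. With all 18 genes the median was 168 ± 4.62 TPM, and without the 7 restricted isoforms it was 269.6 ± 29.0 TPM. Cox8a (chromosome 19, 7215158 to 7217616, minus strand) was highest by exon union length at 957, 1119, 1026 and 1051 TPM. Cox6a1 (chromosome 5, 115345642 to 115348981, minus strand) had 689, 689, 708 and 755 TPM. Cox6b1 (chromosome 7, 30616861 to 30626151, minus strand) had 549, 687, 641 and 694 TPM. Cox8a was above both of these in every library. Cox6a1 was also above Cox6b1 in every library, barely so in replicate 2, though their ranges over the libraries overlapped. By transcript length Cox4i1 was highest at 787 ± 18.8 TPM, above Cox8a at 709.7 ± 38.8 TPM. The lowest broadly expressed subunits by exon union were Cox7c at 118 ± 5.78 TPM and Cox6c at 85.2 ± 7.79 TPM. By transcript length Cox7c stayed the lowest of the 10 at 170.4 ± 9.89 TPM, while Cox6c had 417 ± 34.1 TPM, above 4 of the others.

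For each isoform family the broadly expressed gene was far above its restricted relative. Cox4i1 had 536, 583, 568 and 564 TPM. Cox4i2, the isoform of lung and of cells under low oxygen, had 0, 1, 5 and 7 fragments, or 0, 0.0956, 0.452 and 0.322 TPM. Over the pooled libraries the ratio was 2287 to 1. Cox6b2, known from testis, had 1.72, 3.47, 1.86 and 2.75 TPM, or 0.375 ± 0.0962% of the Cox6b pair. Cox7a2 had 325, 422, 352 and 369.6 TPM and Cox7a1, the isoform of heart and skeletal muscle, 1.55, 2.25, 4.00 and 2.85 TPM, which is 0.723 ± 0.294% of their sum. Fragments of Cox6b2 and Cox7a1 were few, 187 and 98 in all, yet both were found in 4 of 4 libraries. Cox7a2l, a relative of Cox7a2 described as a supercomplex factor, had 202, 230, 227 and 230 TPM, with its protein not measured here.

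Cox6a2 and Cox8b (heart and skeletal muscle), Cox7b2 and Cox8c (testis) and Ndufa4l2, a gene known to be induced by low oxygen, had 0 fragments in all 4 libraries. A count of 0 allows 3 fragments over the 4 libraries together, which limits these genes to between 0.0409 and 0.124 TPM. Cox8a was therefore at least 8378-fold higher than Cox8b and at least 11077-fold higher than Cox8c. Cox6a1 was at least 10931-fold higher than Cox6a2. Ndufa4, long listed with complex I and now placed with complex IV, had 244, 321, 297 and 281 TPM and was at least 6988-fold higher than Ndufa4l2. Cox7b, the X-linked subunit (chromosome X, 106015700 to 106022450), had 231, 300.5, 270.3 and 277 TPM and was at least 3290.3-fold higher than Cox7b2. Of the 4 striated muscle markers Myh6 and Ckm had 0 fragments, Myh7 had 9, all in replicate 4, and Acta1 had 26 over all 4 libraries, or 0.0538, 0.294, 0.139 and 0.378 TPM. The part of muscle RNA in the level of Cox7a1 was not tested. The testis markers Prm1 and Tnp1 had 0 fragments in each library.

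**Figure D2:**
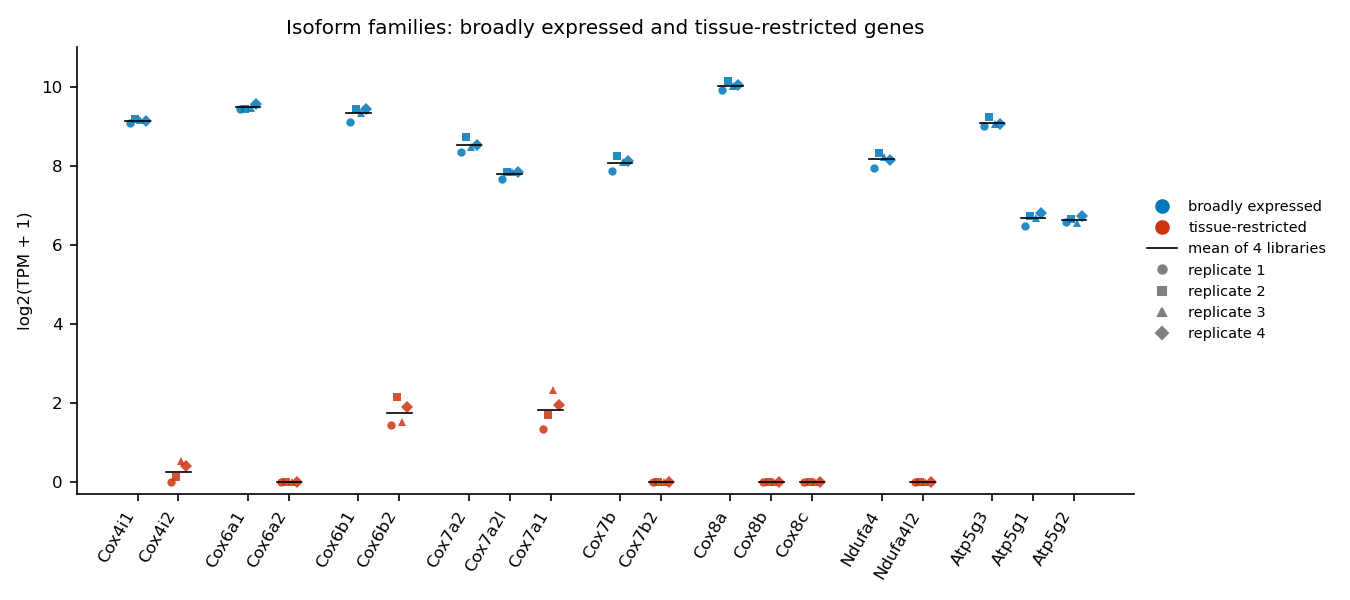
Levels of the isoform families as log2(TPM + 1), with 1 symbol per library and a bar at the mean of 4 libraries; blue marks broadly expressed genes and red marks tissue-restricted ones. In every family with a restricted member the blue and red symbols are far apart, with Cox6b2 and Cox7a1 the highest of the red genes at 2.45 and 2.66 TPM.

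Complex V carried the most abundant genes. The F1 head, which makes ATP, is built from alpha and beta subunits around a central shaft. Atp5b (beta, chromosome 10, 128083273 to 128090391, plus strand) had 1473, 1632, 1634 and 1606 TPM. Atp5a1 (alpha) had 1369.8, 1522, 1534 and 1555 TPM. Atp5b was the higher of the pair in each library, and their means were 1586 ± 76.5 and 1495 ± 84.8 TPM. Atp5d, the delta subunit of the shaft, had 593, 582, 556 and 667 TPM, with replicate 4 highest. Atp5c1 (gamma) had 392 ± 36.9 and Atp5e (epsilon) 214 ± 15.9 TPM. These 5 F1 genes held 20.96 ± 0.372% of the TPM of all 84 members. The 4 peripheral stalk genes, which hold the head still, were close together at 137 to 215 TPM with a median of 192 ± 14.0 TPM.

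At the other end of complex V were Atp5s and Atp5l. Atp5s, which encodes coupling factor B, had 4.18, 5.83, 4.41 and 4.67 TPM. Atp5l, the g subunit of the membrane part (chromosome 9, 44912557 to 44920742, minus strand), had 4.30, 4.98, 4.64 and 4.48 TPM. By exon union length these are the lowest levels among members other than restricted isoforms, and they overlapped each other. For Atp5l 2 measured features stand beside the value. Its exon union of 6443 bases is 11.8 times the 544 bases of its reference transcript, the highest ratio of the 84 genes, and by the transcript's length its level was 37.6 ± 2.06 TPM, above Ndufb4 at 10.5 TPM on that scale. Of its 50-base stretches 68.5% also occur in other genes, 52.5% in the processed pseudogene Gm10221 on chromosome 5, which had 449 fragments in all against 1976 for Atp5l. The part of either feature in the low level was not tested. The first 120 coding bases, shown because a script found 0 differences from Gm10221, are as follows (5′ to 3′, no letters in capitals because none differ).
Atp5l: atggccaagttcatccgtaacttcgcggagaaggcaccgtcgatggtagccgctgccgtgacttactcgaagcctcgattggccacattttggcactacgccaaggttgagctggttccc

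The c ring, the rotor that turns as protons pass, is made from Atp5g1, Atp5g2 and Atp5g3, which differ in their import signals and encode an identical mature subunit. Atp5g3 (chromosome 2, 73908447 to 73911326, minus strand) had 509, 605, 529.7 and 533 TPM. Atp5g1 (chromosome 11, 96068852 to 96075670, minus strand) had 87.9, 105, 102 and 111 TPM, and Atp5g2 (chromosome 15, 102662864 to 102672352, minus strand) 95.0, 99.1, 93.5 and 105 TPM. Atp5g3 held 73.6%, 74.8%, 73.0% and 71.2% of the summed TPM of these genes in replicates 1 to 4, or 73.1 ± 1.49%. The other two did not differ beyond their spread, at 13.7 ± 1.004% for Atp5g1 and 13.2 ± 0.782% for Atp5g2. By transcript length Atp5g3 held 83.4 ± 1.02%, Atp5g2 11.3 ± 0.730% and Atp5g1 5.32 ± 0.437%, so the last pair separated on that scale. Of fragments, with no division by length, Atp5g3 held 64.1 ± 1.88%, Atp5g1 27.0 ± 1.70% and Atp5g2 8.89 ± 0.513%. Atp5g3 was thus highest on each scale, while its share and the order of the others depend on the length used. The reference transcript of Atp5g1 is 4715 bases long, against 714 for Atp5g3.

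The last 228 coding bases, which hold the mature subunit and the stop codon, are printed to show how far these genes can be told apart by reads. They are 5′ to 3′ from the GENCODE transcripts (GRCm38), and capitals mark each base that differs from Atp5g3.
Atp5g3: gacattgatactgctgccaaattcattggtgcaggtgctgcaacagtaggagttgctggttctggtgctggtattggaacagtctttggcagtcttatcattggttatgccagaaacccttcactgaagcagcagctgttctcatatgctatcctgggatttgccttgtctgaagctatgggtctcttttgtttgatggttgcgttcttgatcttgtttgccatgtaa
Atp5g1: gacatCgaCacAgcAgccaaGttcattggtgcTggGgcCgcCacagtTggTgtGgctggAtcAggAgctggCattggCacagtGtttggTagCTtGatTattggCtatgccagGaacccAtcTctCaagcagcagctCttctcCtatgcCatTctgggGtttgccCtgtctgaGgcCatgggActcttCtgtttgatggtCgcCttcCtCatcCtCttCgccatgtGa
Atp5g2: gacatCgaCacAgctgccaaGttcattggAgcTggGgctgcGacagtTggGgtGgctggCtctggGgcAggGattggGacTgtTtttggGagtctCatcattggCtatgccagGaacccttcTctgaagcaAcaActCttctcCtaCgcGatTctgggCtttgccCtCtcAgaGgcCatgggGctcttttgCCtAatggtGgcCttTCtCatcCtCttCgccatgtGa
Atp5g1 differed from Atp5g3 at 46 of the 228 bases, 41 of them at the third codon position, and Atp5g2 at 49, of which 44 were at the third position. Atp5g1 and Atp5g2 differed from each other at 34 bases. The identity to Atp5g3 was 79.8% and 78.5%. Atp5g3 shared 0 50-base stretches with any other annotated gene and Atp5g1 10.6%. Atp5g2 shared 87.4%, the highest share of the 84 members, mainly with the transcribed pseudogene Gm10175. That pseudogene had 282 fragments in all libraries against 11154 for Atp5g2.

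**Figure D3:**
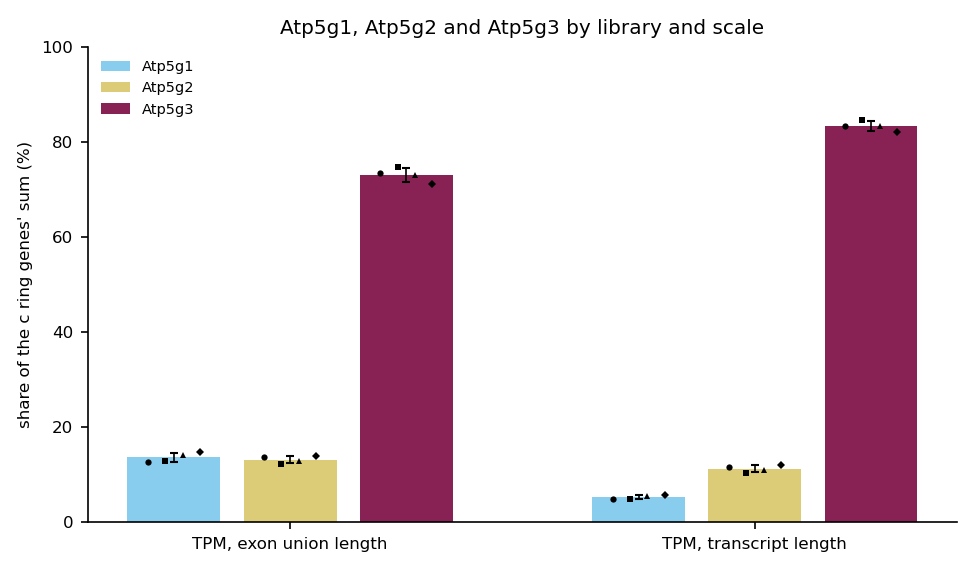
Share of the summed TPM of Atp5g1, Atp5g2 and Atp5g3 in percent, by exon union length and by transcript length; bars are means of 4 libraries, error bars SDs, and symbols single libraries as in the other plots. Atp5g3 holds 73.1% and 83.4% of the sum on these scales, and Atp5g1 and Atp5g2 change order between them.

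Between complexes, medians of log2(TPM + 1) within each library put complexes II and III almost 1 unit above complex I. The difference from complex I was 0.88 ± 0.04 for complex II and 0.96 ± 0.07 for complex III, above 0 in 4 of 4 libraries. Complex V exceeded complex I by 0.49 ± 0.06. Complex IV exceeded it by 0.12 ± 0.07, and by 0.69 ± 0.05 when members under 1 TPM were left out. No test was made of these differences because the members are not replicates. The values depend on the length used and on the members kept. With the length of 1 transcript they were 0.82, 0.80, 0.21 and 0.99 for complexes II, III, IV and V. Complex V then stood highest, its members having a median exon union 2.29 times the transcript length against 1.20 in complex I. With members under 1 TPM left out on that scale, complex IV was highest at 1.05, against 0.96 for complex V. A mean over members put complex IV at -1.49 against complex I, with 5 of its 18 genes under 1 TPM. Leaving out members that share 20% or more of their 50-base stretches with another gene put complex V highest by exon union. It was then at 1.06, against 0.93 for complex III.

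Length mattered for single genes as well. The exon union was at least 2 times the reference transcript in 26 members and at least 4 times in 7. Ndufb7 had 63.0 ± 6.81 TPM by exon union and 315 ± 33.1 by transcript, Cox6c 85.2 ± 7.79 and 417 ± 34.1, and Ndufa11 64.3 ± 4.01 and 217 ± 12.4. Over the 76 members other than restricted isoforms, Spearman's rho between both scales was 0.747, a description across genes that share their counts. Of these 76 members, 14 shared 20% or more of their 50-base stretches with another gene. Their median level was 112 TPM against 221 TPM in the remaining 62, and 179 against 238 TPM by transcript length. In 11 of the 14 the main partner was a processed pseudogene, 2 of these annotated as transcribed. These included Ndufs5, a supernumerary subunit with 40.1 ± 3.28 TPM and 31.1% shared with BC002163, and Ndufa12, with 26.2% shared with Gm15920, which had 2194 fragments against 9501. Exons of 4 members overlapped another gene on the same strand, Atp5o by 12.7% of its exon length and the others by under 5%.

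**Figure D4:**
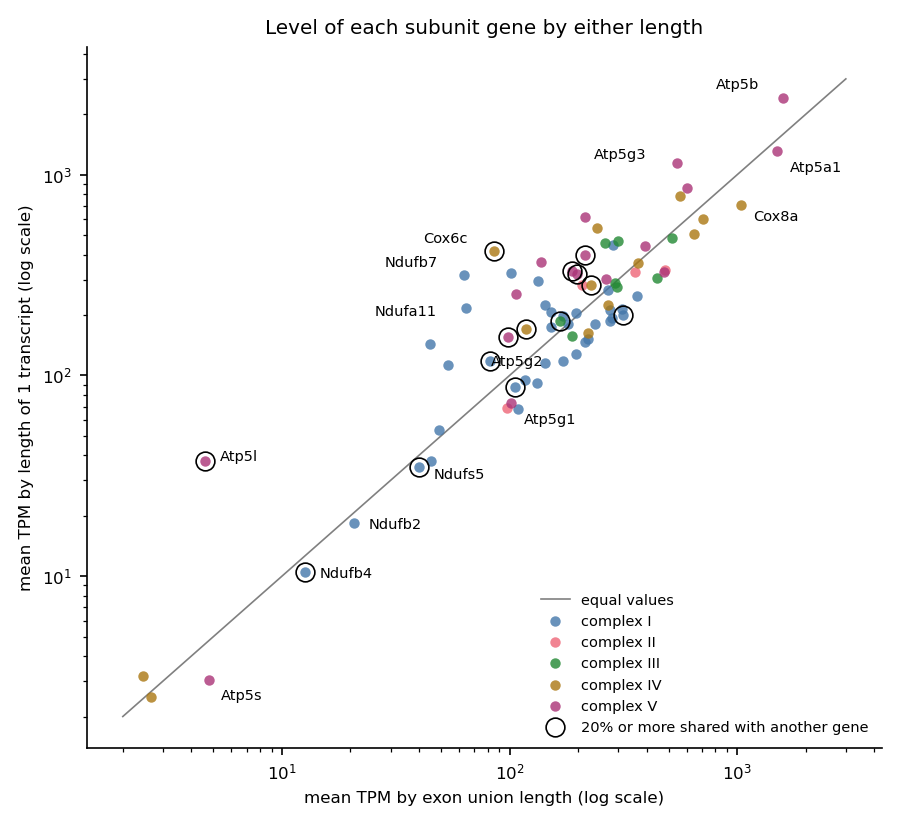
Mean TPM of each subunit gene above 1 TPM by exon union length (x axis) and by the length of 1 reference transcript (y axis), both on log scales, coloured by complex; circles mark genes sharing 20% or more of their 50-base stretches with another gene. Atp5l, Ndufb7 and Cox6c lie far above the line of equal values, and Ndufb4 and Ndufs5 are low on both axes.

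Promoters were searched for motifs of factors known to drive respiratory chain genes. RefSeq gave 300 bases around the start site (250 before, 50 after, GRCm38.p6) for 66 of the 84 members. Both strands were read, and a match is a description of letters only. GCGCATGC, the core of the nuclear respiratory factor 1 site, occurred in 10 of 66 members (15.2%), against 6.7% of 8301 expressed protein-coding promoters and 3.0% of all 27025. AAGATGGCG, a YY1 motif, occurred in 7 (10.6%), against 4.1% and 1.6%. CCGGAAG, an ETS motif read by GABP, occurred in 16 (24.2%), against 22.8% of expressed and 9.9% of all promoters, so the share among members was near that of expressed genes. TCAAGGTCA, an estrogen-related receptor motif, occurred in 2 (3.0%), against 0.3% and 0.5%. Any of these motifs was found in 28 of 66 members (42.4%), against 31.0% of expressed promoters: 12 in complex I, 2 in II, 3 in III, 3 in IV and 8 in V. Overlapping matches on opposite strands, as in a palindromic site, were counted once per promoter.

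Windows of 5 members are printed as examples (5′ to 3′ in the direction of the gene, RefSeq GRCm38.p6, capitals marking the motif). In all 5 the match lies before the start site, so they do not show where matches lie in general. The YY1 matches of Atp5j2, Ndufa9, Ndufc1, Ndufs4, Ndufs6 and Ndufs7 begin after it. Cox6a1 is on chr5:115349081-115349150 (minus), with the motif starting 162 bases before the start site. Ndufa11 is on chr17:56717672-56717741 (plus), 60 bases before. Ndufa6 is on chr15:82354337-82354404 (minus), 83 bases before. Sdhd is on chr9:50603859-50603925 (minus), 46 bases before, and Atp5g3 on chr2:73911340-73911408 (minus), 52 bases before. The first 3 hold the nuclear respiratory factor 1 letters, Sdhd the ETS letters and Atp5g3 the estrogen-related receptor letters.
Cox6a1: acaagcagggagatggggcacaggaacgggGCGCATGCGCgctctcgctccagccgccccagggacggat
Ndufa11: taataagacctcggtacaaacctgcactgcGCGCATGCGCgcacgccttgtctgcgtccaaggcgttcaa
Ndufa6: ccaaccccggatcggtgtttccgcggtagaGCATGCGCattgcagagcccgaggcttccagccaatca
Sdhd: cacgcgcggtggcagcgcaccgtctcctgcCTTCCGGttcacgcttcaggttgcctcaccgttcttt
Atp5g3: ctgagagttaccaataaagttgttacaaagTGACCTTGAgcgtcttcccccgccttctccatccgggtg

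Of 13 regulators of mitochondrial biogenesis 12 were above 1 TPM. Myc, a growth regulator with many mitochondrial targets, had 497 ± 13.4 TPM, the coactivator Pprc1 147 ± 9.80 and Yy1 139 ± 8.62. Nrf1 had 35.9 ± 2.39, Gabpa 60.1 ± 3.85 and Esrra 35.8 ± 4.04 TPM. By transcript length the means were 136 TPM for Nrf1 and 45.0 TPM for Yy1, so the order of that pair rests on the length used. Ppargc1a, the coactivator best known from muscle, brown fat and liver, had 0 fragments in all 4 libraries, and its relative Ppargc1b had 10.2 ± 2.12 TPM. All 39 assembly factors were above 1 TPM, with a median of 35.9 ± 2.79 TPM, under that of the subunits they help to assemble. The highest were Uqcc2 (complex III) at 192 ± 16.3, Atpaf2 (ATP synthase) at 113 ± 7.71 and Tmem70 (ATP synthase) at 109 ± 8.20 TPM, and the lowest Sdhaf3 (complex II) at 3.46 ± 0.253 TPM. Of 9 carriers and partners, Cyc1, the cytochrome subunit of complex III that the name rule leaves out, had 786 ± 28.3 TPM, Etfa 142 ± 14.2, Cycs, cytochrome c, 72.0 ± 6.25 and Sqor 1.91 ± 0.681. Ndufab1, which the name rule also leaves out, had 21.5 ± 1.57 TPM. The 78 mitochondrial ribosomal protein genes, which serve translation of the mitochondrial genome, had a median of 87.0 ± 5.83 TPM.

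Between libraries, none of the subunit genes passed the test of variability. By edgeR's quasi-likelihood dispersion with Benjamini-Hochberg adjustment over all genes, 0 of 78 tested members varied beyond genes of like abundance, where 0.468% of 12396 genes did (58 genes). At an unadjusted p under 0.05 there were 5 of 78 members against 5.33% of all genes, and by DESeq2 0 of 79 members were dispersion outliers, against 0.438% of genes. The smallest edgeR p belonged to Ndufa5, a supernumerary subunit of complex I with 94.0, 144, 113 and 115 TPM (adjusted p = 0.734). Next came Uqcrb, given above (edgeR adjusted p = 0.784), and the core subunit Ndufv2 with 114, 164, 147 and 149 TPM (edgeR adjusted p = 0.822). In each of these 3 replicate 2 was highest and replicate 1 lowest. After TMM scaling the median ratio of the highest to the lowest library was 1.16 over the tested members and 1.13 over 5179 protein-coding genes of like abundance. The ratio exceeded 1.5 in 2 members, the thinly counted Cox6b2 and Cox7a1 (98 to 187 fragments in all). It did so in 14.0% of 11054 protein-coding genes tested and in 0.348% of those of like abundance. That last set covers only the middle of the members' range of abundance. Cox6b2 and Cox7a1 lie below it, so it holds no genes as thinly counted. The medians of 1.16 and 1.13 are likewise over unlike ranges.

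After TMM scaling the small differences ran the same way across the complexes in replicates 2 and 3, and not in replicates 1 and 4. In CPM (fragments per library total, scaled by TMM), replicate 2 was the highest library for 44 of 78 members (56.4%), while it was highest for 28.5% of all genes tested. Replicate 3 was the lowest for 33 members (42.3%), against 21.7% of all genes. The median deviation of the members from their own mean was 0.06 in replicate 2 and -0.05 in replicate 3 on the log2 scale. The median in replicate 2 was 0.05 in complex I, 0.04 in II, 0.11 in III, 0.09 in IV and 0.08 in V, so each complex lay above 0 there. In replicate 3 the medians of the 5 complexes ran from -0.08 in III to -0.0059 in II. In replicate 1 complex I was at 0.0055 while the others were at -0.05 to -0.03, and in replicate 4 complex III was at -0.03 while the others were above 0. On TPM over protein-coding genes replicate 2 was highest for 47 members (60.3%) against 27.7% of all genes, and complex II had a median of 0.01 in replicate 3. On TPM over all features, the scale of the levels above, replicate 3 was lowest for 12 members (15.4%) against 10.4% of all genes, with a median deviation of 0.0054. Replicate 1 was lowest there for 54 members (69.2%) against 52.0% of all genes, so which library is lowest depends on the scale. Members share a library, so these counts describe 4 libraries and no test was made of them.

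**Figure D5:**
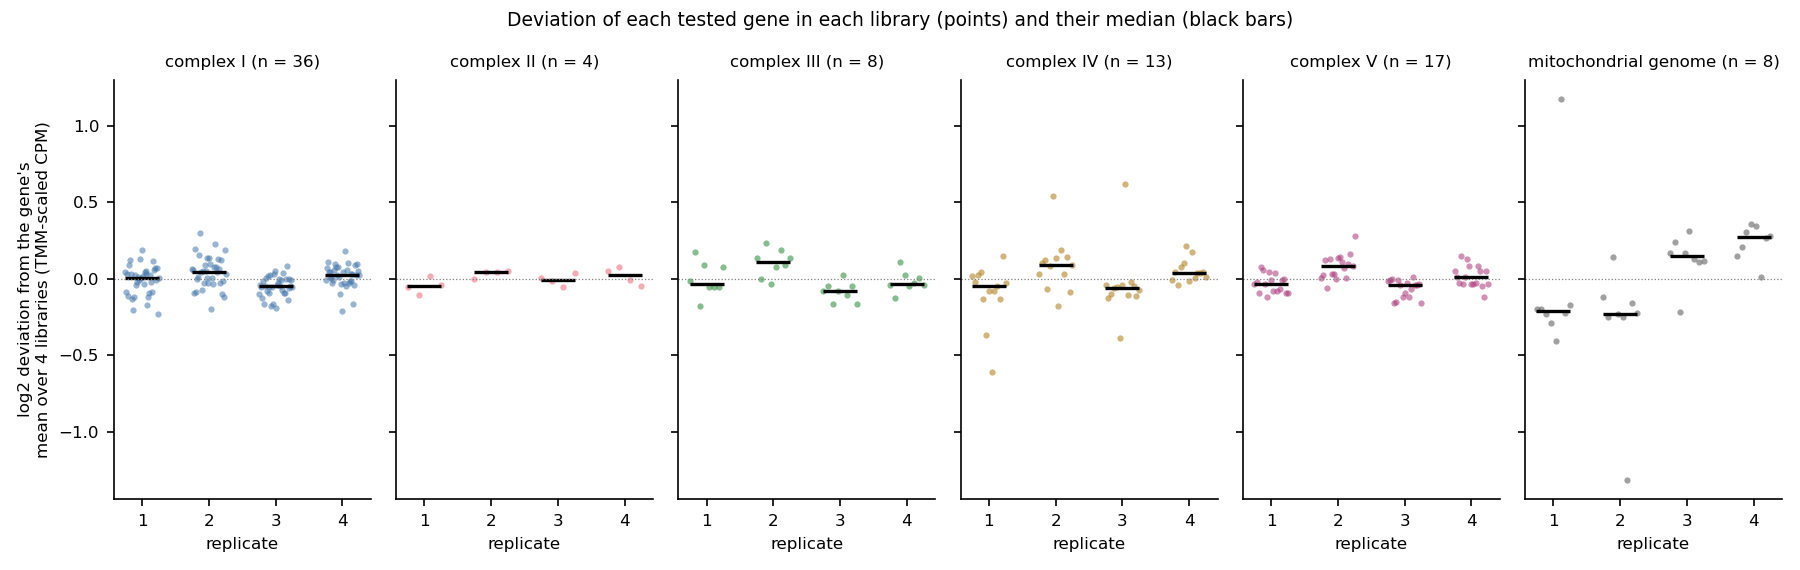
Log2 deviation of each tested gene from its own mean over 4 libraries, in TMM-scaled CPM, by complex and for the mitochondrial genome, with black bars at the medians. Replicate 2 lies slightly above and replicate 3 slightly below 0 in the nuclear complexes, while the mitochondrial genes are below 0 in replicates 1 and 2 and above it in replicates 3 and 4, with mt-Nd6 and mt-Nd3 as exceptions.

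Subunits made from the mitochondrial genome did not share this order. Of the 13 genes 8 were abundant enough to test and 6 passed, against the same 0.468% of all genes. The complex I gene mt-Nd5 had 874, 1051, 1586 and 1579 TPM in replicates 1 to 4 (edgeR adjusted p = 3.23e-05). The complex IV gene mt-Co1 had 3925, 4093, 5283 and 5760.4 TPM (adjusted p = 0.0103), and the complex III gene mt-Cytb 2033, 2290.4, 2828 and 3049 TPM (adjusted p = 0.0371). mt-Nd4 had 549, 617, 836 and 921 TPM (adjusted p = 0.00328) and mt-Nd2 1394, 1444, 2077 and 1977 TPM (adjusted p = 0.0146). In these 5 genes replicates 1 and 2 lay below replicates 3 and 4 without overlap, the same pairs that Xist and Ddx3y separate. The part of whatever separates these pairs was not tested. mt-Nd1 had 3001, 3405, 4253 and 4075 TPM, the same order, and did not pass (adjusted p = 0.262).

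The sixth gene, mt-Nd6, is the complex I subunit encoded on the light strand. It had 40.0, 7.69, 21.4 and 19.2 TPM (adjusted p = 0.0116), with replicate 1 highest and replicate 2 lowest. mt-Nd3 had only 125 fragments in all, against 242625 for mt-Nd1. Its 5.11 ± 1.01 TPM is not read as its level, as for the genes given next. The counts for mt-Co2, mt-Co3, mt-Atp6, mt-Atp8 and mt-Nd4l were between 0 and 5 fragments over all libraries, although every respiring cell uses these genes, so no level is read from them. Beside mt-Co1 at 4765 ± 897 TPM and mt-Cytb at 2550.2 ± 469, the nuclear medians of the same complexes were 269.6 ± 29.0 TPM in IV (11 genes without restricted isoforms) and 287 ± 15.8 TPM in III.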

How the data were processed

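Counts per gene were made by the authors with featureCounts 1.4.6-p4 over exons of GENCODE mouse release 13, per the file headers, from properly mapped pairs with strand setting 2. The deposited counts are raw and not normalized. The assembly is mm10, per the labels, with the aligner not given in the sources used here. The labels name total RNA while linking a polyA+ library protocol. The deposited tables also give each gene's exon union length in bases, per the file headers.

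Names, coordinates and reference transcripts came from GENCODE mouse release 21, in which 50376 of 50600 gene IDs matched. The reference transcript was the best by APPRIS level, then support level, then length, and genes without one kept the exon union length. TPM and CPM were computed from the counts. The name rule that gives the members reads no values, but it and all lists were chosen with earlier results of these data known. Library totals ran from 38590127 to 93035969 fragments, so a count of 0 allows 3 fragments, or 0.0777 to 0.0322 CPM. No pair of libraries was a duplicate: chi-square over its degrees of freedom was 12.2 to 137 for the pairs.

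Variability between libraries was tested with edgeR 4.0.16 in R 4.3.3 on the counts: filterByExpr (minimum count 10), TMM factors, a quasi-likelihood model with an intercept alone and robust prior, a one-sided F probability of each gene's dispersion over its prior, and Benjamini-Hochberg adjustment at 0.05 over all genes. The test was checked on simulated counts. DESeq2 1.42.0 dispersion outliers were an alternative. Differences between complexes are medians of log2(TPM + 1) within a library, with mean and SD and no test. Shared stretches are runs of 50 bases of the reference transcript found in another gene's GENCODE transcripts. Tables and plots used Python 3.11.15, numpy 2.4.6, pandas 2.3.3, scipy 1.17.1 and matplotlib 3.10.9.

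Named with every library's value are the 3 highest and 2 lowest members of each complex (ties at 0 all named), all isoform families, X-linked members and the 3 members with the smallest p. Core subunits of complexes I and II are given with mean and SD, and 1 gene that this rule names is not reported here. Of other lists, the 3 highest genes, the lowest and those called variable are named. Cox6c, Cox7c, Ndufb7, Ndufa11, Ndufs5, Ndufa12, Ndufab1, Nrf1, Gabpa, Esrra and Ppargc1b, and the other members given with a mean alone, were chosen after their values were seen.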

Additional observations from a re-analysis of the deposited data

Results flagged for a closer look

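Gaps between the 4 libraries were examined for 84 values, the TPM of 78 members, the medians of the 5 complexes and the members' share of TPM, against Dixon's 95% critical value. In 4 of them 1 library stood apart from the other 3. Chance alone flags about 1 in 20 groups, so this number is near what chance gives.

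Replicate 1 was the library below the others in 3 of these. Ndufa6, a supernumerary subunit of complex I, had 169 TPM there against 204 to 205 in replicates 2 to 4. Cox7a2l, the supercomplex factor, had 202 TPM against 227 to 230 TPM. The median of complex II was 252 TPM against 289 to 296 TPM. In the same library the protein-coding share of TPM was 88.2% against 95.6% to 96.6% elsewhere. On TPM over protein-coding genes alone, Ndufa6 had 192 against 212 to 213, still a gap of 0.923 of the range, while Cox7a2l had 229 against 235 to 240.3 (a gap of 0.516) and the median of complex II 286 against 302 to 307 (0.782). Cox5b, a zinc-binding subunit of complex IV, stood apart in the other direction, with 252 TPM in replicate 2 against 218 to 224 in the others. Over protein-coding genes it had 264 against 229 to 248 (a gap of 0.457). On that scale only Ndufa6 stayed above the critical value of 0.829.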

How the results depend on the processing

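No paired analysis was possible because the 4 libraries form 1 group. Counts of variable members stayed at 0 in edgeR under each alternative run, with 3 to 9 members at an unadjusted p under 0.05, and in DESeq2. For all genes the 58 calls became 110 with no filter on low counts, 36 with a prior that was not robust, 94 by DESeq2, and 37 to 69 with 1 library left out (37 without replicate 1). For complexes II, III, IV and V minus complex I the value was 1.402, 0.85, 0.49 and 1.11 on CPM without division by length, 0.82, 0.80, 0.21 and 0.99 by transcript length, and 1.15, 1.39, -1.49 and 0.74 by a mean over members. Complex IV became 0.69 with members of at least 1 TPM. Leaving out 1 library gave 0.87 to 0.89, 0.94 to 0.99, 0.09 to 0.15 and 0.46 to 0.51. Some alternatives were chosen after seeing the data. Without members sharing 20% or more of their stretches, complexes II, III, IV and V gave 0.82, 0.93, 0.53 and 1.06, with complex V highest. By transcript length with members of at least 1 TPM the 4 complexes gave 0.80, 0.77, 1.05 and 0.96. The members' share of TPM was 2.17% over protein-coding genes, 1.12% of fragments, 2.38% by transcript length, and 2.01% to 2.096% with 1 library left out. Levels of the 79 detected members moved by over 1 SD in 25 on TPM over protein-coding genes, in 68 by transcript length and in 78 in FPKM with TMM-scaled totals, which is another unit. Beyond the lengths and filters themselves the cause was not tested. Depth limits Cox4i2 (13 fragments) and the genes at 0.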
